A study of Oikopleura dioica with 67 samples.

Results

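Adult females of the larvacean tunicate Oikopleura dioica were compared with unfertilized eggs by RNA sequencing. The comparison used 2 adult female libraries (027 and 028) and 3 unfertilized egg libraries (009, 029 and 041), 5 of the 67 samples of the series. They were chosen by their developmental stage labels and by no measured value. The question was which RNAs of an adult female are those of the egg and which are found in the female but not in the egg. All libraries came from wild-type animals of the Japanese population, kept in laboratory culture at 20 °C, where animals mature and spawn on the fifth day. RNA was total RNA taken with Trizol, and the libraries were strand-specific. The tissue label reads embryo for the adults as well, so the groups rest on the stage label. The labels do not say how many animals or eggs went into a library, whether the females still carried their eggs, or whether libraries of a group came from separate animals, so p-values measure only the spread between these libraries. The other 38 libraries of the staged set (embryos, larvae, juveniles and males, 43 with these 5) entered the fit to estimate the spread, and fertilized eggs, 2-cell embryos, 10 hpf (hours post fertilization) juveniles and adult males served to sort the RNAs.

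Oikopleura dioica is a tunicate that keeps its tadpole shape for life and, unlike other tunicates, has separate sexes. The ovary is a single giant cell in which polyploid nurse nuclei and meiotic nuclei share a cytoplasm. Nurse nuclei transcribe much of the RNA that fills the eggs, and the eggs are released when the body wall ruptures, after which the female dies. The rest of the body holds a gut, a heart, a brain and sense organs, a muscular tail with a notochord, and an epidermis that secretes the filter-feeding house. An adult female library therefore mixes ovary and body, and an egg library holds maternal RNA. Embryonic transcription starts only after some cleavages, so early embryos still show the egg's RNA. In a whole-animal library, fewer cells of a type and less RNA per cell cannot be told apart.

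Levels were RPKM (reads scaled to unigene length and library size) for 19277 assembled transcripts (unigenes), 10122 of them with a gene symbol in human or mouse spelling. Several unigenes can share a symbol, and may then share reads, so each was treated on its own. Roles given below are those of the vertebrate gene of that symbol. Female libraries had 27565328 and 95644620 reads, and egg libraries had 19278120, 32603872 and 43121692, of which between 33.87% and 41.81% aligned. The females held 11913 and 12591 unigenes at 1 RPKM or more, and the eggs 7603, 8107 and 8202. A percentage headed %SS in the authors' sample sheet, which the sources used here do not explain, was 78.77% and 79.97% in females and 95.32% to 99.93% in eggs. It moves with the group, and its part in the results was not tested.

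The library labelled unfertilized egg 009 stood apart from eggs 029 and 041. It was run in lane 4, while both females and the other 2 eggs were run in lane 5. Across unigenes, log2 levels of eggs 029 and 041 correlated at 0.995, egg 009 correlated with them at 0.934 and 0.932, and with the fertilized egg library 010 of its own lane at 0.990. Fertilized egg 042, of lane 6, correlated at 0.966 and 0.973 with eggs 029 and 041 and at 0.899 with egg 009. Fertilized egg 011, of lane 4, correlated at 0.9665, 0.9671 and 0.9676 with eggs 009, 029 and 041. The libraries thus did not sort by stage label alone, and the part of the lane was not tested. In 12 unigenes, eggs 029 and 041 were both at 20 RPKM or more and at least 4-fold above all 3 fertilized egg libraries, a rule that sets fertilized egg 042 apart from them by construction. In all 12, egg 009 was at most 2 times the highest fertilized library, and in none was it within 2-fold of the lower of the other eggs. Both females were above the highest fertilized library in all 12. The unigene of NASP, a histone chaperone, with the higher level of its pair was at 3289 and 2054 RPKM in eggs 029 and 041, 30.2 RPKM in egg 009, 95.3, 36.5 and 49.3 RPKM in fertilized eggs 010, 011 and 042, and 2932 and 3925 RPKM in the females. Egg 009 thus lay with the fertilized eggs for this unigene, and the other eggs lay with the females. These data cannot tell whether its stage label is right. The label was kept, so every egg mean below includes it unless stated. Counts are given with and without egg 009 where they matter, and the comparison without it is also the comparison within lane 5.

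More RNAs were higher in females than in eggs than the reverse. Of 18704 unigenes tested, 4427 (23.7%) were called higher in adult females and 21 (0.112%) higher in unfertilized eggs by limma, at a Benjamini-Hochberg adjusted p under 0.05. At 4-fold or more, 2374 (12.7%) were called higher in females and 0 (0%) higher in eggs. In the egg direction, 193 unigenes had an unadjusted p under 0.05, and 0 of these reached 4-fold. Differences are female minus egg on the log2(RPKM + 1) scale, which understates the change of weak RNAs. Their median over all unigenes was 0.33. Without egg 009, 3813 (20.4%) were higher in females and 20 in eggs, and 3739 of the 4427 were called both ways. Under quantile normalization, which makes the distribution of levels the same in every library, the median fell by 0.51 on the log2 scale, to -0.18, and the calls split into 1471 higher in females and 1049 higher in eggs (58.4% female-higher, against 99.5%). Directions below are therefore relative to the scale of the deposited RPKM.

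Nearly every RNA of the egg was also in the female. Of 6615 unigenes with a mean of 5 RPKM or more in eggs, 6608 were at 1 RPKM or more in females, and their median difference was -0.09. Of these 6615, 332 were called higher in females, 151 of them by 4-fold or more. In the other direction, 8852 unigenes had a mean of 5 RPKM or more in females, of which 7242 were at 1 RPKM or more in eggs and 1610 were below it. Most of the calls came from RNAs scarce in the egg: 3629 of the 4427 were under 1 RPKM there, and 466 lay between 1 and 5 RPKM. Egg libraries held 7603, 8107 and 8202 unigenes at 1 RPKM or more. Most of the 18704 unigenes tested were thus under 1 RPKM in each egg library. RNAs that scarce had little room for a call in the egg direction.

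**Figure D1:**
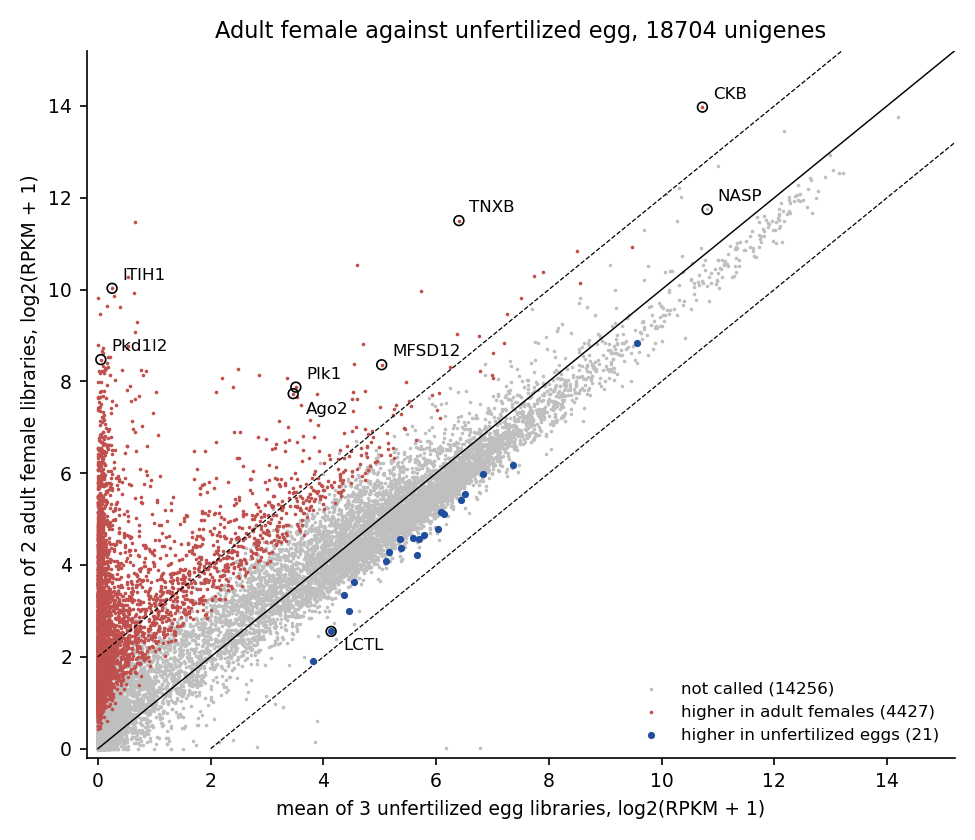
Mean level of each of 18704 unigenes in 3 unfertilized egg libraries (x axis) and 2 adult female libraries (y axis), both as log2(RPKM + 1). Red points were called higher in females (4427), blue points higher in eggs (21), and dashed lines mark 4-fold on the plotted scale. Points crowd the left edge, where RNAs of the female are under 1 RPKM in the egg, and the diagonal, and no blue point lies beyond the lower dashed line.

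The maternal, somatic and shared sets were defined on libraries outside the comparison, so that membership used neither the female nor the unfertilized egg. The somatic set held 4709 unigenes at 5 RPKM or more in 10 hpf juveniles and under 1 RPKM in fertilized eggs and 2-cell embryos. Of these, 2696 (57.3%) were called higher in females, against 23.7% of all unigenes. The rule keeps RNAs that are scarce in early embryos, which left little room for calls in the egg direction. Their median difference was 1.40, with a median level of 2.07 RPKM in females and 0.0348 RPKM in eggs. The rule selects RNAs of the juvenile that are scarce in early embryos, and not body tissue as such, since Bicc1 and BOLL of the germ line list meet it. Of the 4709, 1536 had a mean under 1 RPKM in females. Without egg 009 the count was 2426 and the median 1.38.

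The maternal set held 105 unigenes at 5 RPKM or more in fertilized eggs and 2-cell embryos and under 1 RPKM in juveniles and males. All 105 had a mean of 1 RPKM or more in females. Of these, 12 (11.4%) were called higher in females, 7 of them by 4-fold or more, and 1 was called higher in eggs. The median difference was 0.04, and -0.15 without egg 009. The named member with the highest level in females was Spsb1, an adaptor of a ubiquitin ligase. Spsb1 was at 394 and 440 RPKM in females and at 460, 351 and 301 RPKM in eggs 009, 029 and 041. The groups overlapped. A unigene of CDK1, the kinase that drives entry into M phase, was at 201 and 206 RPKM in females and at 187, 124 and 94.7 RPKM in eggs (0.65 ± 0.47 SE, adjusted p = 0.427). MAP1LC3C, an autophagy protein, was at 205 and 149 RPKM in females and at 554, 170 and 167 RPKM in eggs. RNF7, a RING subunit of ubiquitin ligases, was at 220 and 127 RPKM in females and at 376, 120 and 107 RPKM in eggs. Both overlapped between groups, with egg 009 highest.

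Of the 36 maternal unigenes with a symbol, 3 were called, all higher in females. Rgs14, a regulator of G protein signalling, was at 40.1 and 44.1 RPKM in females and at 18.1, 11.3 and 13.4 RPKM in eggs (1.52 ± 0.32 SE, adjusted p = 0.000372). Slc18b1, a polyamine transporter of vesicles, was at 23.3 and 44.9 RPKM in females and at 13.2, 3.93 and 10.3 RPKM in eggs (1.85 ± 0.46 SE, adjusted p = 0.00183). The third was a unigene of Plk1, described with the cell cycle. Groups did not overlap in any of them, and Slc18b1 lost its call without female 028.

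The shared set held 4998 unigenes at 5 RPKM or more in fertilized eggs, 2-cell embryos and juveniles. Of these, 230 (4.60%) were called higher in females and 18 higher in eggs. Their median difference was -0.16, with median levels of 40.8 RPKM in females and 44.1 RPKM in eggs. Leaving out 1 female left 124 (without 027) or 114 (without 028) called higher in females.

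**Figure D2:**
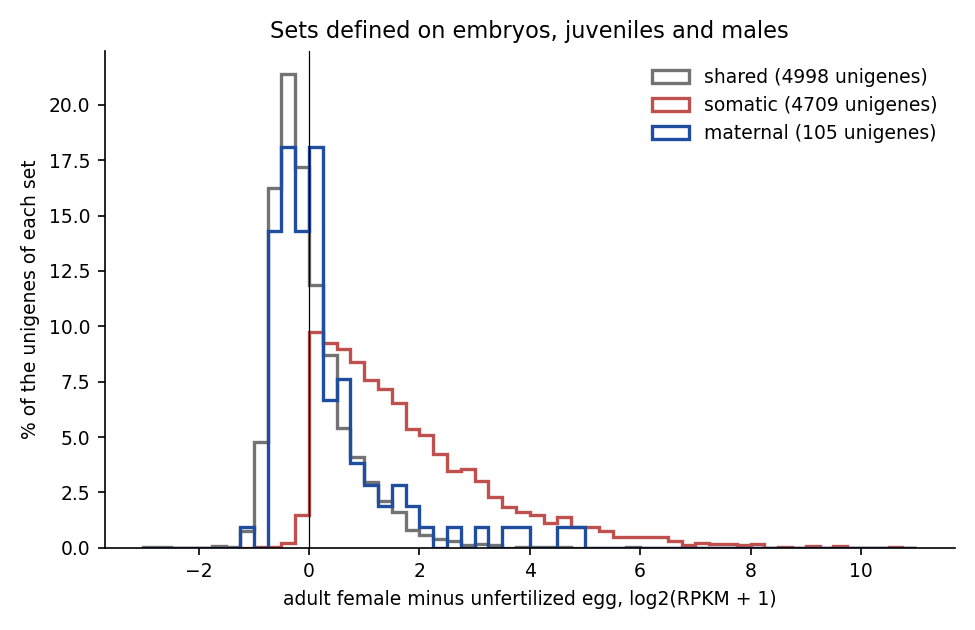
Female minus egg difference, as log2(RPKM + 1), for 105 maternal, 4709 somatic and 4998 shared unigenes, as a percent of each set per bin of the x axis. The maternal and shared sets sit around 0 (medians 0.04 and -0.16) and the somatic set lies to the right (median 1.40).

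Among RNAs with a symbol, ITIH1 and DNER had the largest excess in females. ITIH1, a heavy chain of the inter-alpha-trypsin inhibitor, was at 1504 and 581 RPKM in females and at 0, 0.361 and 0.208 RPKM in eggs 009, 029 and 041 (9.63 ± 0.36 SE, adjusted p = 2.18e-20). DNER, a membrane protein with EGF repeats that binds Notch, was at 1098 and 464 RPKM in females and at 0, 0.503 and 0.456 RPKM in eggs (9.10 ± 0.43 SE, adjusted p = 4.15e-18). Both were also high in 10 hpf juveniles (2188 and 9799 RPKM) and adult males (1113 and 1288 RPKM). A unigene without a symbol (OD_K21COV4_DN15598_c0_g3_i4) had the largest difference of all, at 4388 and 1279 RPKM in females and at 0.563, 0.166 and 1.02 RPKM in eggs (10.6 ± 0.48 SE). Females were above eggs without overlap in each of them.

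Genes of the gut and of digestion were higher in females as a group. Of 331 members tested, 199 (60.1%, against 23.7% of all unigenes) were called higher in females, with a median difference of 1.55 against 0.33. The median stayed above 0 under quantile normalization (0.46). Of the 199, 192 were also present in juveniles at or above the female mean divided by 4. CTRB2, a chymotrypsinogen, was at 627 and 114 RPKM in females and at 0, 0.253 and 0.13 RPKM in eggs. Female 027 was higher than female 028 for this enzyme and for the next 3. Pla2g2d, a secreted phospholipase, was at 764 RPKM in female 027 and 37.5 RPKM in female 028, and at 0, 0 and 0.137 RPKM in eggs. Chia, a chitinase, was at 170 and 65 RPKM in females and at 0.173, 0 and 0 RPKM in eggs. CELA1, an elastase, was at 44.5 and 26.3 RPKM in females and at 0.342, 0.172 and 0.0883 RPKM in eggs. Unlike the other enzymes, CELA1 was low in juveniles (0.917 RPKM) and high in males (61.1 RPKM). All 4 were called, with differences from 4.88 (CELA1) to 7.90 (CTRB2), and none overlapped between groups.

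Extracellular matrix genes followed, with 131 of 259 members (50.6%) called higher in females and a median difference of 1.11. A unigene of FBN2, a fibrillin of microfibrils, was at 274 and 326 RPKM in females and at 0, 0.0505 and 0 RPKM in eggs (8.20 ± 0.65 SE, adjusted p = 2.31e-12). Cilp2, a cartilage matrix protein, was at 169 and 126 RPKM in females and at 0, 0.0341 and 0.131 RPKM in eggs (7.13 ± 0.34 SE). Hmcn1, a hemicentin of basement membranes, was at 64.4 and 36.1 RPKM in females and at 0, 0.0224 and 0.0172 RPKM in eggs. Females lay above eggs without overlap in these unigenes. The symbols FBN2 and Hmcn1 stand for 21 and 45 unigenes, and the values are those of 1 unigene each.

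Proteins with a zona pellucida domain had the highest share of calls. Of 74 members tested, 55 (74.3%) were called higher in females, with a median difference of 2.08, and 69 of the 74 were under 1 RPKM in eggs. The named members are not known for a role in the egg coat. The unigene of Tecta, alpha-tectorin of the inner ear's matrix, with the largest difference was at 300.4 and 73.6 RPKM in females and at 0, 0 and 0.0278 RPKM in eggs. A unigene of OIT3, a secreted protein of the liver, was at 196 and 89.9 RPKM in females and at 0, 0 and 0.214 RPKM in eggs. Juveniles held 1394 RPKM of that Tecta unigene and 802 RPKM of that OIT3 unigene, and 50 of the 55 called members were in juveniles at or above the female mean divided by 4.

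Muscle genes were called higher in females in 49 of 131 cases (37.4%), with a median difference of 0.87. Under quantile normalization the calls fell to 12 of 131, beside 1471 of 18704 for all unigenes, and the median to 0.07. In eggs, 106 of the 131 were under 1 RPKM, which left little room for calls in the egg direction. Tpm1, a tropomyosin of thin filaments, was at 27.3 and 26 RPKM in females and listed at 0 in all 3 eggs. Tnni3, an inhibitory troponin, was at 9.59 and 21.3 RPKM in females and listed at 0 in all 3 eggs. Myl6, a myosin light chain, was at 25.3 and 12 RPKM in females and also listed at 0 in the eggs. Their levels were higher in juveniles, at 522, 242 and 549 RPKM.

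Genes of cilia and sperm tails were called higher in females in 60 of 189 cases (31.7%). TEKT3, a tektin of axonemal microtubules, was at 25 and 35.3 RPKM in females and at 0, 0.0495 and 0.076 RPKM in eggs. A unigene of ODF3, a protein of the sperm tail, was at 18.8 and 28.1 RPKM in females and listed at 0 in eggs. The list's median was 0.81, and -0.12 under quantile normalization, which turned its sign. Of the 60, 59 were in juveniles at or above the female mean divided by 4.

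The nervous system list stayed below the background. Of 208 members, 21 (10.1%) were called higher in females, and the median of 0.15 became -0.29 under quantile normalization. SYN2, a synapsin of synaptic vesicles, was at 153 and 40.9 RPKM in females and at 0.152, 0.157 and 0.0687 RPKM in eggs (6.16 ± 0.47 SE, adjusted p = 8.33e-13). Elavl3, a neuronal RNA-binding protein, was at 8.36 and 6.12 RPKM in females and at 0.343, 0.404 and 0.621 RPKM in eggs. Solute carriers were above the background, with 130 of 388 (33.5%) called higher in females and 1 higher in eggs, but their median of 0.46 became -0.14 under quantile normalization. Sulfotransferases and enzymes of glycosaminoglycan synthesis were also below the background, with 26 of 206 (12.6%) called, and their median of 0.31 became -0.19 under quantile normalization.

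Genes of yolk, lipoprotein and lipid transport were mixed. Of 33 members, 14 (42.4%) were called higher in females and 1 higher in eggs, with a median difference of 1.01 (0.08 under quantile normalization). A unigene of APOD, a lipocalin that carries lipids, was at 65.4 and 80.2 RPKM in females and listed at 0 in eggs. FABP6, a fatty acid binding protein of the gut, was at 84.5 and 47.9 RPKM in females and listed at 0 in eggs. A unigene of LRP4, a lipoprotein receptor-related protein, was at 256 and 181 RPKM in females and at 12.4, 37.4 and 16 RPKM in eggs (3.39 ± 0.55 SE, adjusted p = 6.85e-06). Unigenes of Lrp12, a receptor of the same family, went both ways. One was at 41.3 and 70.1 RPKM in females and listed at 0 in eggs, and another was at 65.7 and 58.7 RPKM in females and at 111, 107 and 122 RPKM in eggs (-0.86 ± 0.30 SE, adjusted p = 0.0315). The latter lost its call when any 1 library was left out.

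**Figure D3:**
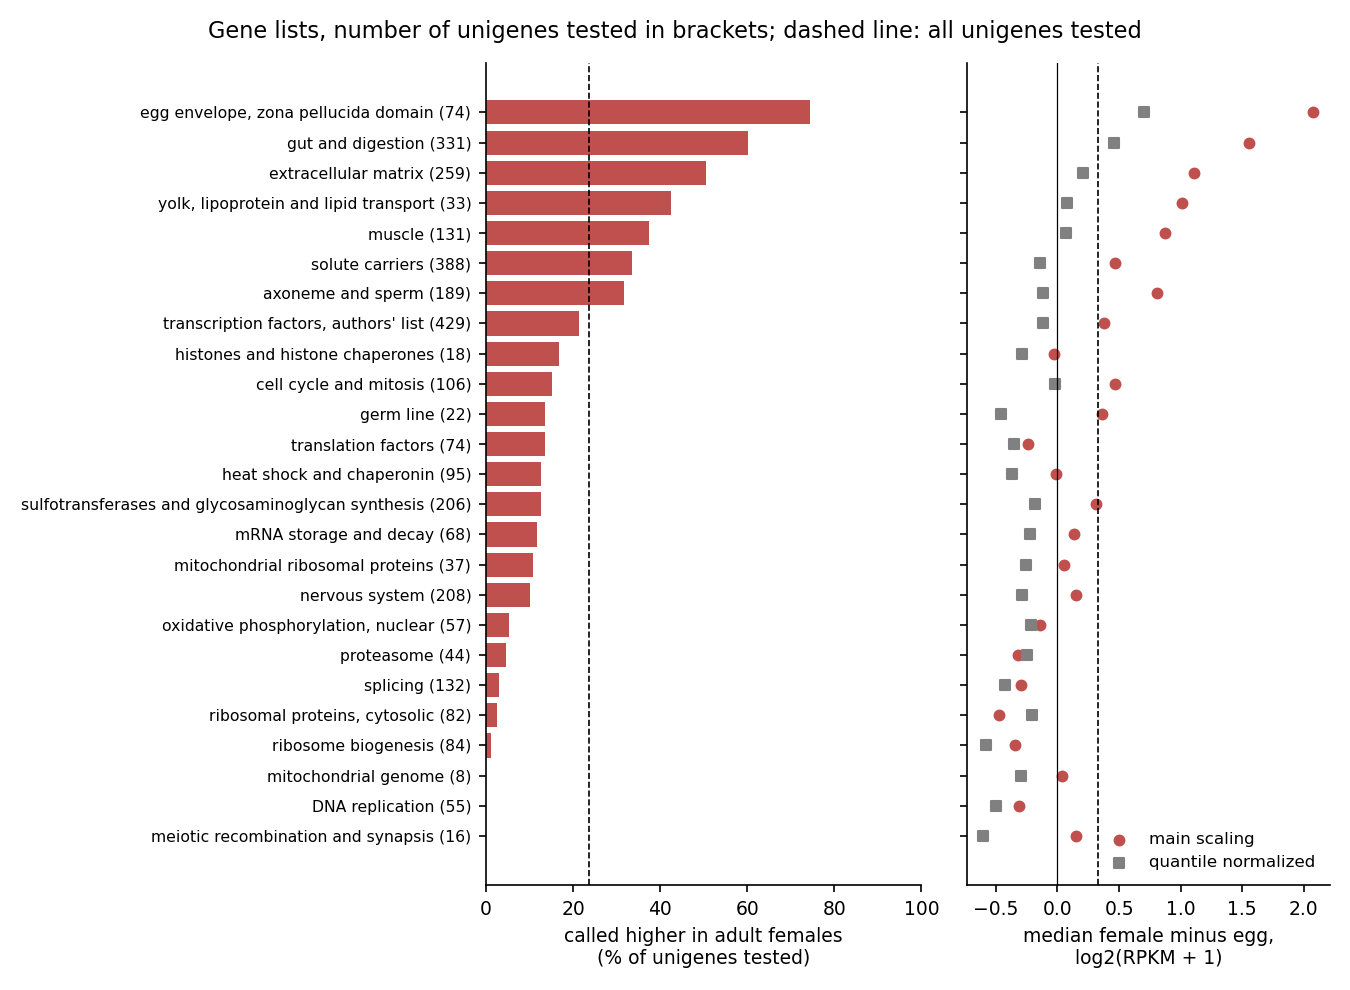
Share of each gene list called higher in adult females (left, percent of unigenes tested) and median female minus egg difference (right, log2(RPKM + 1)) as deposited and after quantile normalization. Dashed lines mark all unigenes tested (23.7% and 0.33). Zona pellucida domain, gut, matrix, lipid, muscle, solute carrier and cilia lists lie above the dashed line on the left, and the lists of the replication, translation and splicing machinery lie below it.

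The housekeeping machinery of the cell was at like levels in the female and the egg. Of 82 cytosolic ribosomal protein unigenes, 2 (2.44%) were called higher in females, and 77 of the 82 differences were below 0, with a median of -0.48 (-0.21 under quantile normalization and -0.25 without egg 009). The 2 called, Rpl4 and RPL7A, were unigenes at under 1 RPKM in the eggs. Rpl23 and Rpl30, of the large subunit, were among the most abundant RNAs of the egg. Rpl23 was at 7732 and 4689 RPKM in females and at 12697, 6034 and 6389 RPKM in eggs. Rpl30 was at 6397 and 4772 RPKM in females and at 10389, 6128 and 6250 RPKM in eggs. In both the groups overlapped, egg 009 was highest, and neither was called.

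The most abundant RNA of the egg, Eef1a1, the elongation factor that brings tRNAs to the ribosome, was at 14633 and 13084 RPKM in females and at 16992, 20051 and 19133 RPKM in eggs. The groups did not overlap, but the difference was not called (-0.43 ± 0.42 SE, adjusted p = 0.603). Slc25a4, the mitochondrial ADP/ATP carrier, was at 4661 and 7273 RPKM in females and at 10009, 9222 and 9428 RPKM in eggs (-0.71 ± 0.50 SE, adjusted p = 0.396). ATP5G2, a subunit of ATP synthase, was at 6715 and 5146 RPKM in females and at 15239, 5937 and 6074 RPKM in eggs. Of the 57 nuclear genes of oxidative phosphorylation, 3 (5.26%) were called higher in females, and their median was -0.14.

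Machinery lists of the nucleus behaved alike. In DNA replication, 0 of 55 members were called by limma in either direction (2 higher in females and 1 higher in eggs at an unadjusted p under 0.05), and 39 of the 55 differences were below 0, with a median of -0.31. Splicing had 4 of 132 members (3.03%) called higher in females, ribosome biogenesis 1 of 84 (1.19%), and the proteasome 2 of 44 (4.55%), with medians of -0.30, -0.34 and -0.32. In ribosome biogenesis 1 member, DDX47, was called higher in eggs. These medians were also below 0 when levels were rescaled, quantile normalized or compared without egg 009. Heat shock proteins and chaperonins had 12 of 95 members (12.6%) called higher in females and a median of -0.01. Mitochondrial ribosomal proteins had 4 of 37 members (10.8%) called higher in females and a median of 0.05. Histones and their chaperones had 3 of 18 members (16.7%) called, HIST2H2AB, HIST1H2BB and an ASF1A unigene, and a median of -0.03. HIST2H2AB, a histone H2A, was at 32.7 and 21.2 RPKM in females and at 5.65, 5.63 and 3.47 RPKM in eggs (2.23 ± 0.75 SE, adjusted p = 0.0249), a call lost without female 027, female 028 or egg 041. The 8 unigenes named for mitochondrial genome products were all under 1 RPKM in eggs, and none was called by limma (0 also at an unadjusted p under 0.05).

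Translation factors were mostly at like levels, but some unigenes were far lower in the egg. Of 74 members, 10 (13.5%) were called higher in females, 6 of 74 without egg 009. A unigene of EIF4E, the factor that binds the mRNA cap, was at 229 and 365 RPKM in females and at 2.1, 0.0387 and 0.297 RPKM in eggs (7.49 ± 0.72 SE, adjusted p = 1.90e-10). Another EIF4E unigene was at 85.7 and 149 RPKM in females and at 3.57, 4.35 and 4.97 RPKM in eggs (4.44 ± 0.75 SE, adjusted p = 1.30e-05). Both were also found in juveniles (165 and 90.0 RPKM) and males (182 and 71.0 RPKM), and 6 unigenes carry the symbol. The weaker of the Eef1a1 unigenes was at 72.8 and 57 RPKM in females and at 7.51, 5.09 and 4.71 RPKM in eggs, and at 601 RPKM in juveniles.

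The 21 unigenes called higher in eggs differed by less than 4-fold on the log2(RPKM + 1) scale. Their differences ran from -1.91 to -0.75, and all 21 had groups that did not overlap (5.85% of all unigenes had eggs above females without overlap). The 4-fold limit depends on the added 1. The unigene at -1.91, without a symbol, had mean levels of 2.76 RPKM in females and 13.1 RPKM in eggs, a plain ratio of 4.73. With a pseudocount of 0.1, 5 unigenes were called higher in eggs at 4-fold or more. LCTL, a lactase-like glycosidase, had the largest difference of those with a symbol. LCTL was at 5.57 and 4.16 RPKM in females and at 15.1, 14.9 and 19.8 RPKM in eggs (-1.58 ± 0.45 SE, adjusted p = 0.00723). Vars, the valyl-tRNA synthetase, was at 5.2 and 8.76 RPKM in females and at 17.5, 26.6 and 19 RPKM in eggs (-1.48 ± 0.44 SE, adjusted p = 0.0103). Cyp3a13, a cytochrome P450, was at 24.9 and 20.8 RPKM in females and at 64.6, 41.3 and 47.2 RPKM in eggs (-1.11 ± 0.31 SE, adjusted p = 0.00636). DDX47, a helicase of ribosome biogenesis, was at 24.7 and 23.9 RPKM in females and at 76.5, 40.2 and 44.6 RPKM in eggs (-1.06 ± 0.35 SE, adjusted p = 0.0251). In DDX47, C12orf57, FTSJ1 and both TMEM185B unigenes egg 009 was the highest library, and the calls were lost without it. For FTSJ1 the eggs were close, at 41.4, 39.6 and 40.4 RPKM, and the difference hardly moved (-1.01, and -0.996 without egg 009).

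The rest of the 13 with a symbol were SLC2A13 (an inositol transporter), FTSJ1 and TYW5 (enzymes that modify tRNA), MED11 (a Mediator subunit), Dync1li2 (a dynein light intermediate chain), C12orf57 and the Lrp12 unigene above. MED11 was the most abundant, at 367 and 542 RPKM in females and at 695, 745 and 823 RPKM in eggs (-0.75 ± 0.24 SE, adjusted p = 0.0177). Without egg 009, 20 unigenes were called higher in eggs, of which 6 were among the 21, and 4 of these 6 carry a symbol (LCTL, Vars, Cyp3a13 and MED11). Without female 027 there were 4 calls, and without female 028 there were 11. The median level of the 21 was 22.9 RPKM in females, 49.4 RPKM in eggs, 69.2 RPKM at the 2-cell stage, 58.3 RPKM at the 32-cell stage, 14.02 RPKM in juveniles and 1.76 RPKM in males. In 2-cell embryos 2 of the 21 were below the egg, and in males 20 were. That course is a description, since the egg values chose these unigenes.

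Hardly any egg RNA was missing from females. Of the 7 unigenes at 5 RPKM or more in eggs and under 1 RPKM in females, all 7 were highest in egg 009, and 5 were under 1 RPKM in both eggs 029 and 041. The strongest, without a symbol, was at 326 RPKM in egg 009, listed at 0 in eggs 029 and 041, and at 280 and 409 RPKM in fertilized eggs 010 and 011 but listed at 0 in fertilized egg 042. RBPMS, an RNA-binding protein and the only one with a symbol, was at 1.07 and 0.836 RPKM in females and at 14.1, 1.46 and 7.79 RPKM in eggs (adjusted p = 0.126). None of the 7 was called, with adjusted p from 0.126 to 0.679.

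Germ line genes were found in both female and egg. Of 22 unigenes of the germ line list, 3 (13.6%, against 23.7% of all) were called higher in females, and the median of 0.36 became -0.46 under quantile normalization and -0.09 without egg 009. Piwil1, which binds piRNAs, was at 35.6 and 48.9 RPKM in females and at 14.8, 55.4 and 54.9 RPKM in eggs. The Ddx4 (vasa helicase) unigene with the highest level was at 43.5 and 95.3 RPKM in females and at 61.2, 103 and 100.5 RPKM in eggs. Neither was called, and the groups overlapped. A second Ddx4 unigene was lower in egg 009 than in the other eggs, at 23.1 and 70 RPKM in females, 49.5 and 37.2 RPKM in eggs 029 and 041, 3.17 RPKM in egg 009 and between 6.69 and 7.51 RPKM in fertilized eggs. Called were a Tdrd9 unigene, Bicc1 and BOLL. Tdrd9, a helicase of the piRNA pathway, was at 7.18 and 19.4 RPKM in females and at 0.55, 3.88 and 3.63 RPKM in eggs (1.98 ± 0.71 SE, adjusted p = 0.0391, and 0.218 without egg 009). Bicc1, an RNA-binding repressor, was at 20.6 and 16.6 RPKM in females and at 0, 0.026 and 0.0199 RPKM in eggs. BOLL, an RNA-binding protein of the DAZ family, was at 5.05 and 3.42 RPKM in females and at 0, 0.0817 and 0 RPKM in eggs. Bicc1 and BOLL were higher still in juveniles (79.7 and 79.4 RPKM).

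Genes of meiotic recombination showed no call, with 0 of 16 in either direction by limma (1 higher in females and 0 higher in eggs at an unadjusted p under 0.05). Dmc1, the meiotic recombinase, was at 21.8 and 14.2 RPKM in females and at 21, 16.7 and 28.3 RPKM in eggs. The stronger unigene of TRIP13, which remodels Hormad proteins, was at 33.9 and 65.2 RPKM in females and at 41.8, 82.2 and 85.8 RPKM in eggs. The groups overlapped in both. SPO11, which makes the breaks that start recombination, was under 1 RPKM in all 5 libraries.

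Cell cycle genes were called higher in females in 16 of 106 cases (15.1%), below the 23.7% of all unigenes. Without egg 009 it was 8 of 106, while the share of all unigenes was 20.4%. Unigenes of Plk1, a kinase that acts throughout M phase, made 3 of the 16. The strongest was at 235 and 232 RPKM in females and at 21.6, 5.71 and 3.85 RPKM in eggs (4.70 ± 0.63 SE, adjusted p = 2.46e-07). The next was at 156 and 194 RPKM in females and at 82.1, 35.7 and 19.7 RPKM in eggs (2.14 ± 0.75 SE, adjusted p = 0.0349), a call lost without female 027, female 028, egg 029 or egg 041. In both, egg 009 was the highest of the eggs and still below the females. CDC14A, a phosphatase, was at 13.6 and 14.5 RPKM in females and at 0.912, 0.939 and 0.866 RPKM in eggs (2.98 ± 0.32 SE, adjusted p = 3.41e-09). It was higher still in juveniles (63.9 RPKM) and males (34.4 RPKM).

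Other cell cycle calls were lost without egg 009. ANAPC1 and Cdc16, subunits of the anaphase-promoting complex, were at 15.6 and 26.7 RPKM and at 9.83 and 20.4 RPKM in females. Eggs 009, 029 and 041 held 2.2, 11.3 and 10.3 RPKM of ANAPC1 and 0.464, 6.16 and 5.77 RPKM of Cdc16. Females were above all eggs, and egg 009 was far below the other eggs. Their adjusted p of 0.0025 and 0.0066 became 0.0573 and 0.116 without egg 009, as their differences went from 1.49 to 0.86 and from 1.88 to 1.13. Both calls were also lost without female 028. Of the 4 unigenes of CDC25A, the phosphatase that activates CDK1, a single unigene was called and the rest were not. The called unigene was at 106 and 76.9 RPKM in females, at 24.8, 44.3 and 34.2 RPKM in eggs (1.40 ± 0.46 SE, adjusted p = 0.0203) and at 180 RPKM in males. Without egg 009 the difference was 1.19 (adjusted p = 0.0928), and the call was also lost without either female. Ccna2, cyclin A2, was lower in females, at 418 and 518 RPKM against 904, 1013 and 1178 RPKM in eggs, without overlap and without a call (-1.14 ± 0.52 SE, adjusted p = 0.125).

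Most RNAs with a 4-fold excess in females were also found in juveniles. Of the 2374, 2067 were in juveniles at or above the female mean divided by 4, 131 were below that in juveniles but not in males, and 176 were below it in both. The 131 included Pkd1l2, a polycystin-like channel protein, at 635 and 73.9 RPKM in females, 0, 0 and 0.108 RPKM in eggs, 0.479 RPKM in juveniles and 282 RPKM in males. Gabarapl2, an autophagy protein, was at 132 and 226 RPKM in females and at 0.229, 0.135 and 0.362 RPKM in eggs, with 2.46 RPKM in juveniles and 109 RPKM in males. GAMT, the enzyme that makes creatine, was at 66.6 and 214 RPKM in females, 0, 0 and 0.0783 RPKM in eggs, 25.4 RPKM in juveniles and 223 RPKM in males. PXDN, a peroxidase that crosslinks basement membrane collagen, was at 88.3 and 60.7 RPKM in females, 0, 0 and 0.024 RPKM in eggs, 2.66 RPKM in juveniles and 51.7 RPKM in males. These RNAs were thus shared by adults of both sexes and scarce in eggs.

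The 176 unigenes that were low in both juveniles and males fell into 91 under 1 RPKM in eggs, 35 between 1 and 5 RPKM, and 50 at 5 RPKM or more. The class was chosen after its values were seen, and its levels are a description. Stages from 1.5 to 8 hpf were not part of the choice, so low levels there are not implied. The 50 had a median level of 100.5 RPKM in females, 10.5 RPKM in unfertilized eggs, 7.05 RPKM in fertilized eggs, 3.17 RPKM at the 32-cell stage, 5.62 RPKM in juveniles and 1.12 RPKM in males. The fertilized egg level was below that of the unfertilized egg in 41 of the 50, and the 32-cell level in 46. The floor of 5 RPKM was set on the unfertilized egg and not on these later stages, which by itself favours lower levels there. For the maternal set the corresponding counts were 74 and 94 of 105, and for the shared set 2118 and 3278 of 4998. Both of those sets had that floor on the fertilized egg instead, so their counts are no like-for-like reference. Whether the levels of the 50 fell after the egg, beyond the effect of this choice, was not tested.

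**Figure D4:**
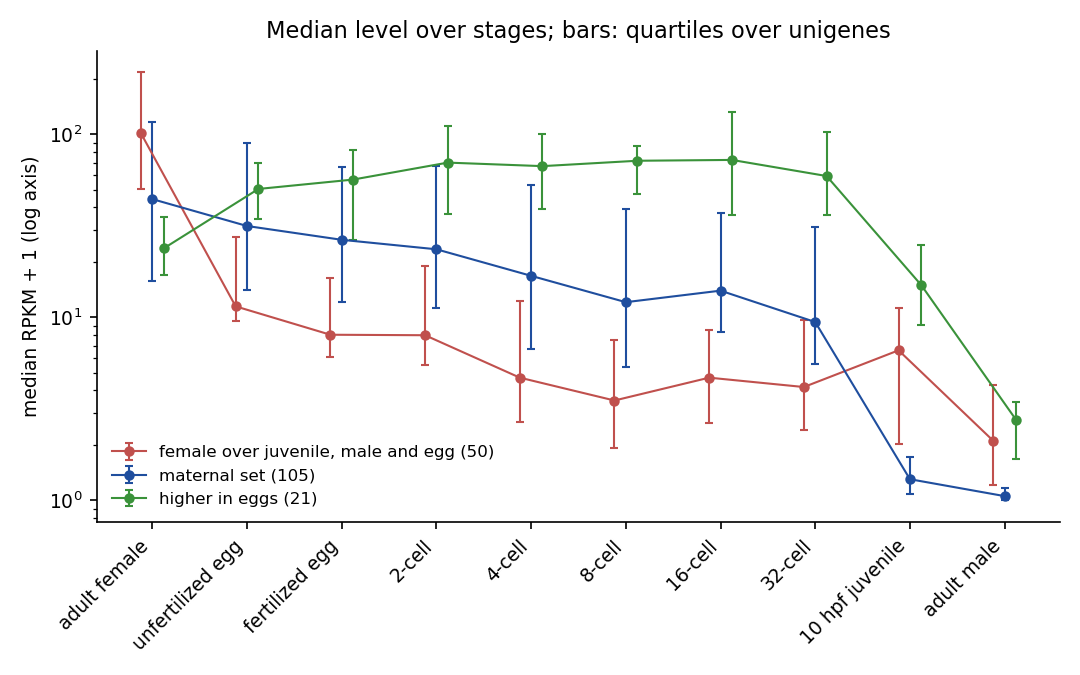
Median RPKM + 1 (log axis) by stage, with bars from the lower to the upper quartile over unigenes, for the 50 unigenes high in females over eggs, juveniles and males and at 5 RPKM or more in eggs, the 105 maternal unigenes and the 21 called higher in eggs. The first group had medians of 100.5 RPKM in females and 10.5 RPKM in eggs, a gap that follows from how it was chosen. The maternal set, chosen without these libraries, had medians of 43.4 and 30.6 RPKM. Of its 105 unigenes, 59 were lower in females than in eggs.

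CKB, the brain-type creatine kinase, which buffers ATP, had the highest mean level in females among unigenes with a symbol. CKB was at 23842 and 8298 RPKM in females and at 539, 3370 and 1161 RPKM in eggs. In female 028 Eef1a1 was above it, at 13084 RPKM. CKB was at 86.3 RPKM at the 32-cell stage, 2.16 RPKM in juveniles and 2.45 RPKM in males. Females were above every egg (3.45 ± 1.02 SE, adjusted p = 0.01), but the spread within both groups was wide, and the call was lost without egg 009 (adjusted p = 0.0675) or without female 027. Tuba1b, an alpha-tubulin, had a like course, at 9637 and 3556 RPKM in females, 1759, 2656 and 1697 RPKM in eggs, 31.7 RPKM in juveniles and 10.7 RPKM in males, but was not called (1.55 ± 0.90 SE, adjusted p = 0.264).

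A pair of unigenes with the symbol TNXB, tenascin X of the extracellular matrix, were high in females and low in juveniles and males. The stronger was at 3663 and 2131 RPKM in females and at 72.7, 119 and 59.1 RPKM in eggs (5.11 ± 0.70 SE, adjusted p = 3.83e-07). The other was at 769 and 1232 RPKM in females and at 3.45, 107 and 45.1 RPKM in eggs (5.11 ± 0.72 SE, adjusted p = 5.97e-07). Juveniles held 1.68 and 0.371 RPKM, and males 4.03 and 1.20 RPKM. A further TNXB unigene, at 391 and 229 RPKM in females, was in juveniles as well (207 RPKM).

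Unigenes of Ago2, MARF1 and Ddx6 were among the 50. The Ago2 unigene, 1 of 6 with the symbol of this Argonaute that binds small RNAs, was at 170 and 253 RPKM in females and at 5.89, 14.5 and 9.72 RPKM in eggs (4.32 ± 0.32 SE, adjusted p = 2.98e-13). Juveniles held 8.79 RPKM of it and males 40.2 RPKM. MARF1, a ribonuclease needed by mouse oocytes, was at 83.2 and 92.6 RPKM in females and at 16.4, 17.2 and 8.78 RPKM in eggs (2.61 ± 0.42 SE, adjusted p = 5.98e-06). Ddx6, a helicase of mRNA storage and decay, was at 333 and 299.5 RPKM in females and at 16.3, 128 and 81.3 RPKM in eggs (2.48 ± 0.60 SE, adjusted p = 0.00148). The 3 unigenes had groups that did not overlap. Ddx6 was low in egg 009, where it matched the fertilized eggs (12.8 to 19.5 RPKM). Lsm14b, which binds stored mRNA with Ddx6 and lies outside the class, was at 394 and 511 RPKM in females and at 54.1, 214 and 170.0 RPKM in eggs (adjusted p = 0.00858, and 0.108 without egg 009). Across the list of mRNA storage and decay, 8 of 68 members (11.8%, against 23.7% of all unigenes) were called higher in females and the median was 0.14. ZFP36L2, which targets mRNAs for decay, was at 577 and 326 RPKM in females and at 5.96, 37.5 and 31.4 RPKM in eggs, but males held 204 RPKM.

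Lmna, an A-type lamin and another of the 50, was at 493 and 920 RPKM in females and at 90.8, 240 and 127 RPKM in eggs (2.25 ± 0.45 SE, adjusted p = 0.000145). SLC38A3, a glutamine transporter, was at 575 and 468 RPKM in females and at 75.6, 118 and 52.2 RPKM in eggs (2.73 ± 0.56 SE, adjusted p = 0.000247). MFSD12, a transporter of lysosome-related organelles, was at 376 and 279 RPKM in females and at 11.4, 60.1 and 23.7 RPKM in eggs (3.61 ± 0.57 SE, adjusted p = 4.20e-06). Ppib, a peptidyl-prolyl isomerase of the endoplasmic reticulum, was at 1911 and 1762 RPKM in females and at 403, 401 and 273 RPKM in eggs. One of the IDH1 unigenes, of a dehydrogenase that makes NADPH, was at 121 and 102 RPKM in females and at 10.2, 12.1 and 12 RPKM in eggs. USF1 and USF2, partners in a transcription factor dimer, were at 98.8 and 185 RPKM and at 73.6 and 136 RPKM in females, and at 6.36 to 18.9 RPKM and 8.45 to 11.3 RPKM in eggs. None of these groups overlapped, and all 7 were called.

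**Figure D5:**
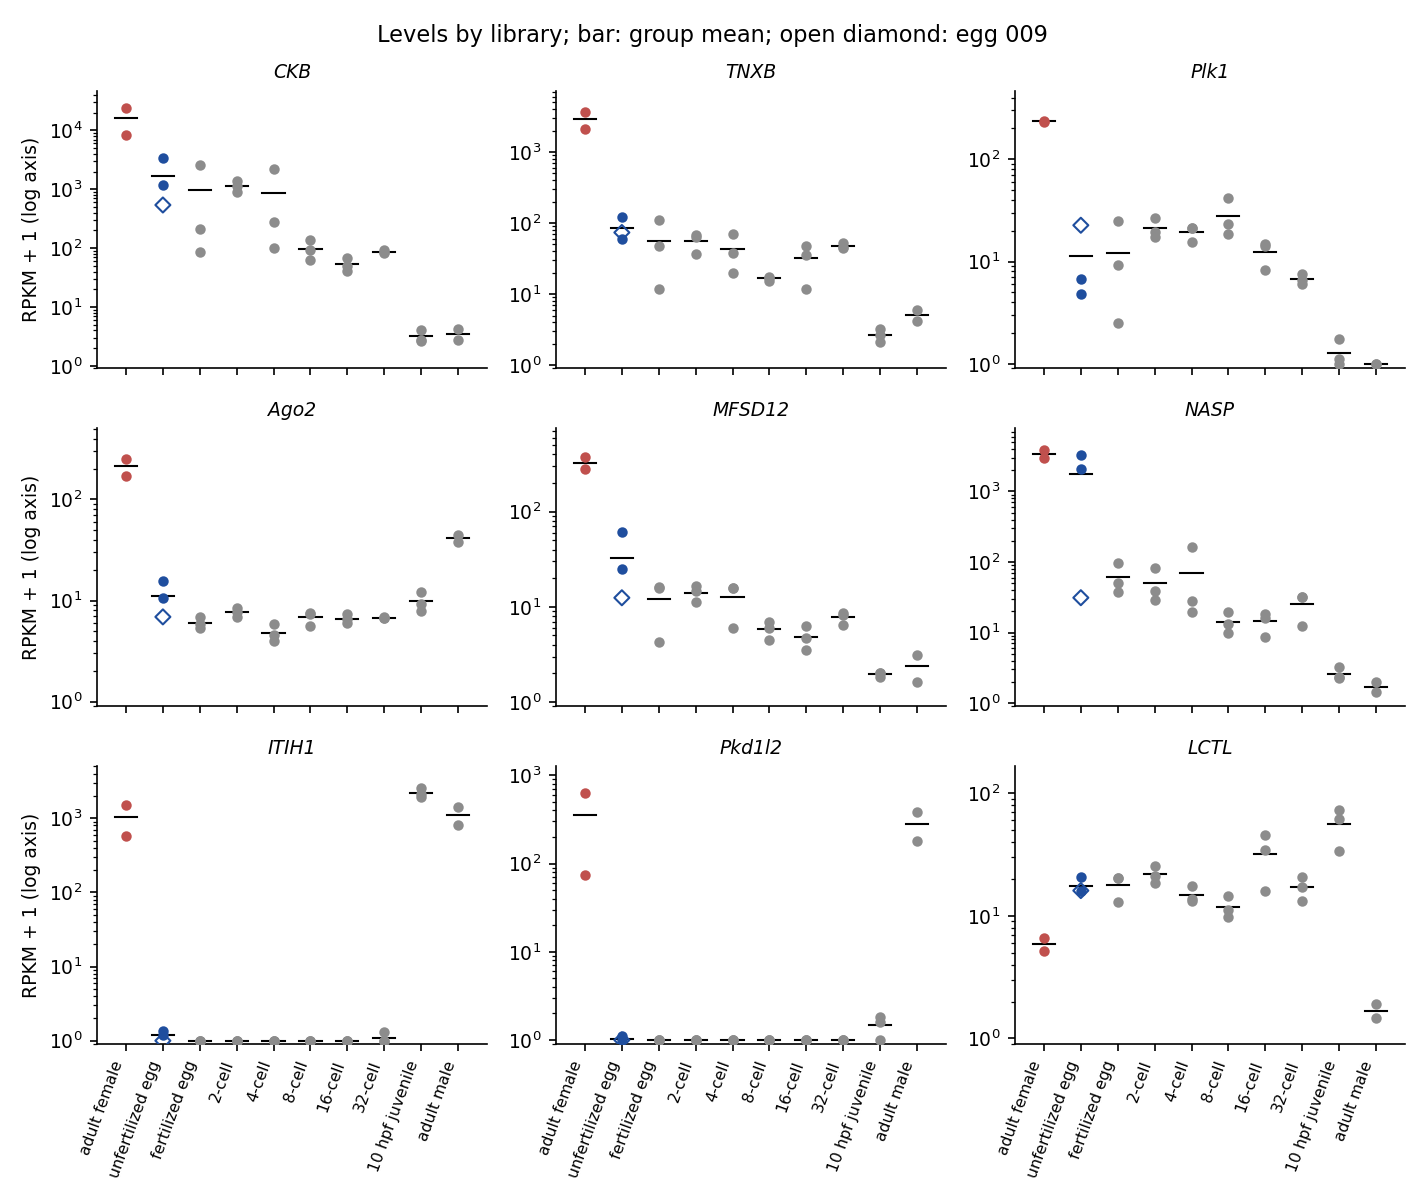
Level in each library of 9 unigenes as RPKM + 1 (log axis) by stage, with females in red, unfertilized eggs in blue and group means as bars. The open diamond is egg 009. CKB, TNXB, Plk1, Ago2 and MFSD12 are high in females and lower from the egg on, NASP is high in females and eggs 029 and 041 but not in egg 009 (30.2 RPKM), ITIH1 and Pkd1l2 are near 0 in eggs and high in males, and LCTL is higher in eggs than in females.

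Of the RNAs low in juveniles and males that were also scarce in the egg, Foxo6, a forkhead factor, was at 42 and 102 RPKM in females and listed at 0 in all 3 eggs. VIPR1, a receptor for vasoactive intestinal peptide, was at 21.4 and 50.6 RPKM in females and at 0, 0 and 0.0495 RPKM in eggs (5.07 ± 0.22 SE, adjusted p = 4.19e-19). SMAD9, a transducer of BMP signals, was at 29.1 and 51.5 RPKM in females and at 0.238, 0.327 and 1.51 RPKM in eggs (4.63 ± 0.39 SE, adjusted p = 1.02e-11). Juveniles held 0.326 to 0.415 RPKM of these 3, and males 3.76 to 12.5 RPKM. Larvae were not part of the choice, and members differed there. At 5 hpf, Fam214b was at 171 RPKM (mean of 217 RPKM in females) and Abhd4 at 73.9 RPKM (35.7 RPKM in females). At the same stage FAM120B was at 4.71 RPKM (55.2 RPKM in females) and Foxo6 at 0.188 RPKM.

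By a stricter rule, 24 unigenes were at 5 RPKM or more in females and under 1 RPKM in fertilized eggs, 2-cell embryos, juveniles and males. The female values chose them, so their levels are given without a test. Of the 24, 8 had a mean of 1 RPKM or more in unfertilized eggs, and 8 carry a symbol. Cyhr1, a cysteine- and histidine-rich protein, was at 21.8 and 43.9 RPKM in females and at 0.0988, 4.63 and 1.16 RPKM in eggs. Trim2, a ubiquitin ligase, was at 26.1 and 22.6 RPKM in females and at 0.459, 0.54 and 0.311 RPKM in eggs. A unigene of Banf1, which binds DNA at the nuclear envelope, was at 8.87 and 19.3 RPKM in females, 7.52 and 6.66 RPKM in eggs 029 and 041, 0.103 RPKM in egg 009 and at most 1.01 RPKM in fertilized eggs. A second Banf1 unigene was at 5.37 and 13.9 RPKM in females, 3.7 and 2.73 RPKM in eggs 029 and 041 and 0 in egg 009. In both Banf1 unigenes eggs 029 and 041 were below the females and above egg 009. The rule did not cover larvae. At 3 hpf, Cyhr1 was at 9.10 RPKM, and the first and second Banf1 unigenes were at 8.17 and 1.29 RPKM.

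The authors' own list of transcription factors was close to the background. Of 429 members tested, 92 (21.4%, against 23.7% of all unigenes) were called higher in females, 70 without egg 009. The median of 0.38 became -0.12 under quantile normalization. In juveniles, 84 of the 92 were at or above the female mean divided by 4. Smad3, a transducer of TGF-beta signals, was at 38.1 and 87 RPKM in females and at 0.161, 0.0945 and 0.29 RPKM in eggs (5.64 ± 0.24 SE, adjusted p = 4.23e-19). It was low in juveniles (0.369 RPKM) and at 22.1 RPKM in males. Mafg, a small Maf factor, was at 36 and 28.1 RPKM in females and at 0, 0.0637 and 0.0979 RPKM in eggs. A unigene of Otx2, a homeobox factor of the anterior brain, was at 9.87 and 6.92 RPKM in females and at 0, 0 and 0.0914 RPKM in eggs, with 71.8 RPKM in juveniles. Females were above every egg in the 3 of them.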

How the data were processed

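The staged set was read from the authors' deposited table of RPKM values (reads scaled to unigene length and library size), and HISAT2 is named in the submitters' processing notes. Its version, the counting tool and the assembly behind the unigenes are not given in the sources used here. Read counts, the percent of reads aligned and a %SS value per library came from the authors' deposited sample sheet, where the aligned percent is also stored as a fraction. The depth behind a single RPKM value is not known, since no counts per unigene were used. A further 170 columns of values per sample, in tables not used here, were left out.

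Unigenes at 1 RPKM or more in at least 2 of the 43 staged libraries were tested, and 573 were not. Levels were transformed to log2(RPKM + 1) and fitted with limma 3.58.1 in R 4.3.3 (1 mean for each of 15 groups, 28 residual degrees of freedom, trended empirical Bayes), with Benjamini-Hochberg adjustment over all unigenes tested. The fit was tested on simulated data. Alternatives were a pseudocount of 0.1, no filter, a filter at 5 RPKM or more in at least 2 of the 5 libraries, rescaling, quantile normalization, a fit of the 5 libraries alone and each library left out.

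The comparison, gene lists and sets were chosen with earlier results of these data known, and the 25 lists, matched on symbols or, for the authors' transcription factors, on unigene IDs, were trimmed after seeing the names of members. Genes were named by these rules: the 12 largest changes with a symbol in each direction, up to 4 called members of each list, any member of the germ line, meiosis, cell cycle and yolk lists, the highest levels in egg and female, the highest of each set, and up to 2 unigenes without a symbol per direction. Outside these rules, and chosen after their values were seen, are NASP, RBPMS, Lsm14b, the genes low in juveniles or males, those high in eggs 029 and 041 only, and the division by 4. No sequences are printed. A result that is withheld is not reported here.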

Additional observations from a re-analysis of the deposited data

How the results depend on the processing

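No paired analysis was possible because the library numbers of females and eggs share none. Leaving out 1 library gave 3079 to 4006 unigenes higher in females (2173 to 2464 at 4-fold) and 4 to 36 higher in eggs (0 to 4 at 4-fold). With a filter at 5 RPKM or more in at least 2 of the 5 libraries, in place of 1 RPKM in 2 of the 43, 1912 were higher in females (1576 at 4-fold). Rescaling left 9 and the fit of the 5 libraries alone gave 36 higher in eggs. Under quantile normalization, 1471 (846 at 4-fold) were higher in females and 1049 (12 at 4-fold) in eggs. A pseudocount of 0.1 gave 5677 and 5 at 4-fold. Over the gene lists together, 826 members were higher in females, 356 with the 5 RPKM filter and 274 under quantile normalization, and 3 were higher in eggs, against 1 rescaled, 112 quantile normalized, 6 in the fit alone and 0 to 6 without 1 library.

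In the maternal set, the fit of the 5 libraries alone called 7 higher in females; the single call in eggs became 0 with a pseudocount of 0.1, the 5 RPKM filter, rescaling, the fit alone and each library left out, and 19 under quantile normalization. In the somatic set, 1047 (5 RPKM filter) and 868 (quantile) were higher in females and 8 (quantile) in eggs. Members near 0 in eggs pass the 5 RPKM filter only through the females, which raises the median by construction. The median was 3.49 with a pseudocount of 0.1, 3.81 with the 5 RPKM filter, 1.54 rescaled, 0.28 quantile normalized, 0.99 with presence at 2 RPKM, 1.77 with presence at 10 RPKM and 1.31 to 1.43 without 1 library. In the shared set, calls in females were 146 (quantile), 443 (presence at 2 RPKM), 112 (presence at 10 RPKM) and 114 to 210 without 1 library; calls in eggs were 9 (rescaled), 216 (quantile), 28 (fit alone) and 4 to 28 without 1 library, and the median was -0.42 under quantile normalization. Presence at 10 RPKM left 11 of the 24 unigenes of the stricter rule for females. The 176 unigenes low in juveniles and males became 375 with a division by 2 and 59 by 10, settings chosen after seeing the data. Quantile normalization turned the sign of 66 of the 363 unigenes that the naming rules chose, 5 of them called. Among those recomputed for the text and called under either scaling, it turned a Plk1 unigene to -0.041, an LRP4 unigene to -0.078 and an LRP12 unigene to -0.38. Where no construction shows it, the cause was not tested.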
